A study of Mus musculus with 38 samples.

Results

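Reads that start at the 5′ end of a mature tRNA were described in mouse sperm, isoacceptor by isoacceptor. An isoacceptor is the set of tRNAs that carry one amino acid and read codons with one anticodon, so that tRNA-Gly-GCC is the glycine tRNA with anticodon GCC. The members were all rows listed under the 5′ end class of reads matching the genome, 49 isoacceptors out of 638403 rows of all small RNA classes. Sperm of 38 C57BL/6J male mice, an inbred strain, was analysed in 4 diet groups that shared genotype and an age of 11 to 13 weeks at death after fasting. The first 2 letters of a group give the diet of the dam from conception to weaning at day 21 and the last 2 the diet of the son after weaning, where CT holds 20% protein and PR, for protein restriction, holds 8%. There were 10 CTCT, 9 CTPR, 9 PRCT and 10 PRPR mice, and littermates were split over the diets after weaning, so that 8 CT litters held a CTCT and a CTPR mouse and 9 PR litters a PRCT and a PRPR mouse. The mouse was the replicate.

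For littermates 47I1 and 47I2 the sample labels give CTCT and CTPR, and the study's own list of mice gives the reverse. The labels were followed. In 3 libraries, 35F2 (CTCT), 31A3 (PRCT) and 08G5 (PRPR), the class totals did not add up to the genome-matched reads within 1%, so that each ratio was taken to the sum over isoacceptors. Genome-matched reads per library ranged from 4465281 to 7612603, of which 145154 to 1560305 were 5′ end reads, and levels are given in RPM, the reads per 1000000 genome-matched reads. The 4 miRNAs of the sperm list (mir-34b, mir-34c, mir-449a and mir-191) were present in every library, at a summed 36.2 to 1688 RPM. So were miRNAs of other cells, the 5 of the epithelial mir-200 family list at 34.2 to 2227 RPM and mir-143 with mir-145a of smooth muscle and stroma at 62.3 to 8098 RPM, while the liver miRNA mir-122 was at 0 in 19 libraries.

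Mature tRNAs are cut in or near the anticodon loop by ribonucleases such as angiogenin, which leaves a 5′ and a 3′ fragment. Sperm is known for carrying many 5′ fragments and few 3′ fragments, and part of this load is acquired from the epithelium as sperm pass through the epididymis. Chemical marks on the tRNA, among them the cytosine methylation set by DNMT2 and the queuosine base in the anticodon, are known to alter how readily a tRNA is cut, and many such marks also stop the reverse transcriptase in library preparation.

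An isoacceptor is named by its anticodon, and a 5′ fragment that stops short of the anticodon carries no letter of it. The 5′ parts below were read from GENCODE transcripts and RefSeq promoter windows of build GRCm38 that overlap tRNA genes of the RefSeq table, which holds a gene for 46 of the 49 members. A 5′ part could be read for 14 isoacceptors. Each is printed 5′ to 3′ from base 1 of the gene to the base after the anticodon, in DNA letters, with the anticodon in capitals. The strand was taken as the one that places the anticodon at bases 33 to 37.
tRNA-Gly-CCC, gene n-TGccc7: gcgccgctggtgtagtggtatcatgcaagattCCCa
tRNA-Val-CAC, gene n-TVcac9: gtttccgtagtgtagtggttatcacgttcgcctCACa
tRNA-His-GTG, gene n-THgtg7: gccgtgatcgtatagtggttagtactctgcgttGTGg
tRNA-Leu-TAA, gene n-TLtaa3: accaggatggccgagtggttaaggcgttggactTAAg
tRNA-Arg-TCT, gene n-TRtct2: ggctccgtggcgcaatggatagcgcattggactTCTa
tRNA-Arg-TCT, gene n-TRtct4: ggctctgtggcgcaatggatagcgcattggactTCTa
tRNA-Asn-GTT, gene n-TNgtt7: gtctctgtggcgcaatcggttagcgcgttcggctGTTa
The glycine and valine genes are shown because Gly-CCC and Val-CAC belong to amino acids with rows named differently in the 2 classes, the histidine gene for the largest fitted difference past P = 0.05, the leucine and arginine genes for their shares, and the asparagine gene because its row was almost empty. No read was matched to these genes, and no Gly-GCC or Val-AAC gene could be read to compare. They therefore do not show which gene gave the reads of a row. The Gly-CCC gene lies at chr17:25875088-25875158, plus strand, within an exon of Mettl26, and the His-GTG gene at chr3:96452495-96452566, plus strand, in the promoter window of BC107364. The Val-CAC gene is at chr13:23446142-23446214, minus strand, in the promoter window of Gm46404, and the Leu-TAA gene at chr10:12922571-12922653, minus strand, in an exon of B230208H11Rik. The first Arg-TCT gene lies at chr3:122292948-122293032, minus strand, in an exon of Gm17494, the second at chr11:69123482-69123568, minus strand, in an exon of Hes7, and the Asn-GTT gene at chr10:80249159-80249232, plus strand, in an exon of Ndufs7. The Arg-TCT genes, members of 1 row, were identical at 36 of 37 positions and shared their first 5 bases before the difference.

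The 5′ reads were concentrated in few isoacceptors. tRNA-Gly-CCC alone held 56.6% of all 5′ end reads and tRNA-Glu-CTC 18.8%, and the first 5 members, which add Val-AAC, Gly-GCC and Lys-CTT, held 93.2%. The first 10 members (further Glu-TTC, His-GTG, Val-CAC, SeC-TCA and Gln-CTG) reached 98.5%, so that the other 39 shared 1.52%. Gly-CCC was the highest member in 36 of 38 mice, and Glu-CTC in the other 2, 07C3 (CTCT) and 14A5 (PRPR). Over all mice the mean level was 58407 ± 31866 RPM (SD, n = 38) for Gly-CCC and 19925 ± 10183 for Glu-CTC. Val-AAC followed at 6600.4 ± 3448 RPM, Gly-GCC at 6163 ± 2936 and Lys-CTT at 5970.4 ± 2548, values that lie closer together than their spread between mice. The spread was wide for every member. Among the 36 members with a mean of at least 20 reads per library, the SD between mice ran from 39.6% of the mean (SeC-TCA, the selenocysteine tRNA) to 103% (Gly-ACC), with a median of 55.5%. By name, Gly-CCC has 6 genes in the RefSeq table and Cys-GCA, at 10.5 RPM, has 56. The Gly-CCC 5′ row followed the Gly-GCC reads of the tRNA class (below). Its level can therefore not be set against the number of Gly-CCC genes.

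**Figure D1:**
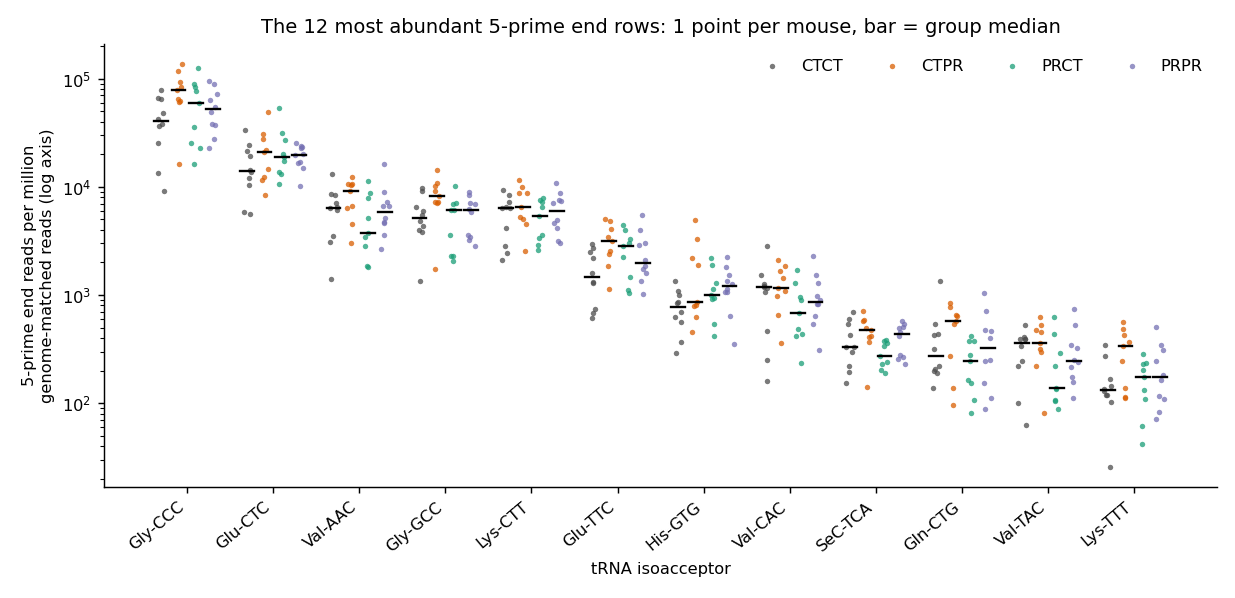
Levels in RPM (log axis) of the 12 most abundant 5′ end isoacceptors, with 1 point per mouse, a colour per diet group and a bar at the group median. Gly-CCC lies above the other members in nearly all mice, and the 4 groups overlap for every isoacceptor shown.

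At the other end, 13 members stayed below a mean of 20 reads per library and 16 were missing from at least 1 library. Thr-AGT, Ile-GAT, Ile-TAT and Ala-GGC had reads in 1 library each, and Thr-CGT and Arg-TCG in 2 each. A count of 0 allows up to 3 reads, which is 0.394 to 0.672 RPM at these depths and covers counting error only. The empty rows were not all rows with few reads in the whole tRNA class. Thr-AGT had 1 5′ read against 22280 reads in the whole tRNA class, Arg-CCT 18 against 41830, and Asn-GTT 105 against 41495. Whether 5′ reads of these tRNAs were counted under another name was not tested.

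Each 5′ row was next set against the row of the same name in the whole tRNA class, which counts all reads assigned to that tRNA. The ratio can be read as the share of 5′ ends only where both classes name a read alike, and in glycine, valine, alanine and part of serine, leucine and proline they did not. For Gly-CCC there were 14227710 5′ reads but only 1624671 reads in the tRNA class, a ratio of 8.76, and the 5′ count was the larger in 38 of 38 libraries. Gly-GCC showed the opposite, with 1486747 5′ reads against 16061059 in the tRNA class. Summed, Gly-CCC and Gly-GCC gave a ratio of 88.9%, and between 83.5% and 94.7% in single libraries. Across the 38 mice the log2 level of the Gly-CCC 5′ row followed that of Gly-GCC in the tRNA class (Pearson's r = 0.991) more closely than that of Gly-CCC itself (r = 0.629), where both points of a mouse come from 1 library and share its depth.

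The same held for valine. Val-AAC had 1569915 5′ reads against 594759 (ratio 2.64) and Val-CAC 247135 against 1463333 (ratio 0.169), and their sum gave 88.3%. Gly-ACC (7.7), Ala-AGC (1.85), Ser-AGA (1.15) and Leu-AAG (1.01) also had pooled ratios over 1, and Pro-AGG exceeded 1 in 13 libraries, so that 7 members in all held more 5′ reads than reads of the tRNA class in at least 1 library. Ser-TGA had 1108 5′ reads against 7645, and Ser-AGA and Ser-TGA together gave 86.3%. How the authors' software chose a name for a read with several matches was not tested.

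**Figure D2:**
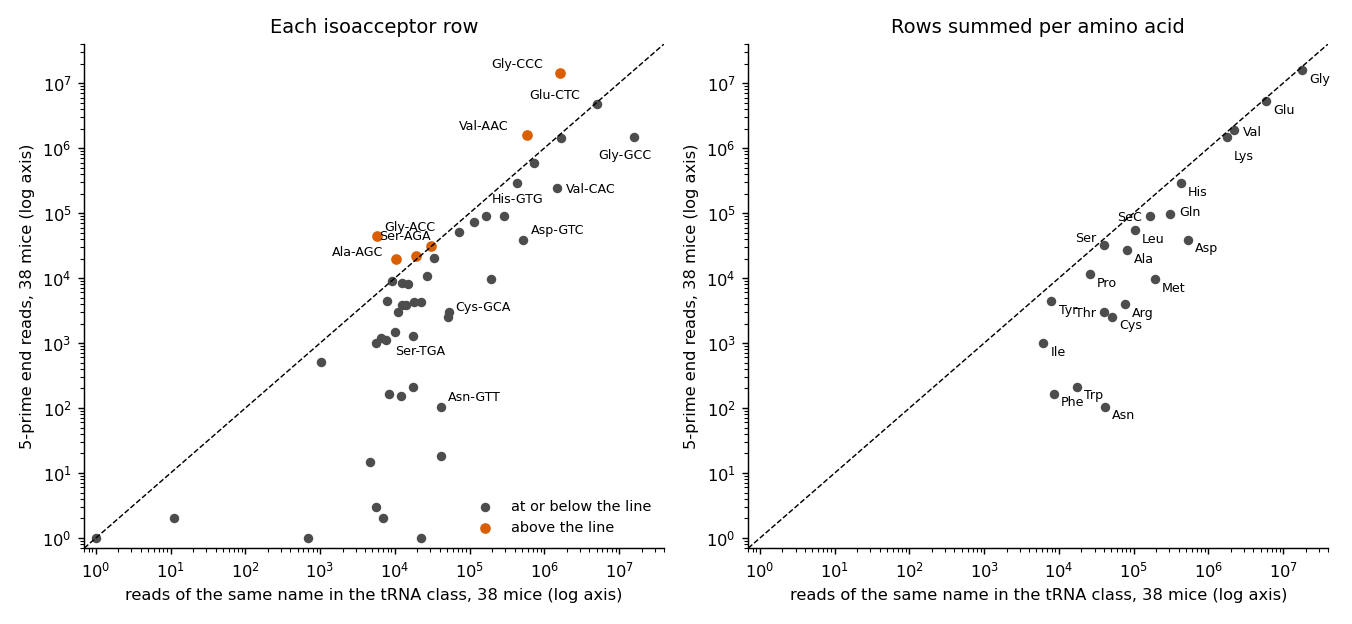
5′ end reads against reads of the same name in the tRNA class, summed over 38 mice, both on log axes, with a dashed line where they are equal. By isoacceptor (left) 6 points lie above the line, Gly-CCC farthest in reads, and summed per amino acid (right) none does.

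Summed per amino acid the ratio stayed below 100% in every library, which alone does not make it a share. It is called a share below, which holds where both classes give a read the same amino acid. That was not tested. The share ran from amino acids read almost wholly from the 5′ end to amino acids hardly read from it. Glutamate had the highest pooled share, 90.8% (84.6% to 96.2% in single mice), followed by glycine at 89%, valine at 87%, lysine at 85.1% and serine at 78.2%. The ranges of these neighbours overlapped. Histidine (67.9%), selenocysteine (55.3%), tyrosine (55.3%) and leucine (52.9%) were intermediate. Aspartate (7.36%), arginine (5.24%), methionine (4.95%) and cysteine (4.93%) were low, and phenylalanine (1.96%), tryptophan (1.22%) and asparagine (0.253%) lowest. In single mice asparagine never passed 1.04%, whereas phenylalanine, on few reads, ranged from 0 to 42.9%. The remaining amino acids, isoleucine (16.2%), glutamine (31.1%), alanine (33.1%), proline (44.9%) and threonine (7.5%), filled the gap between these groups. Among isoacceptors whose 5′ reads never exceeded those of the tRNA class, Glu-CTC stood at 92.2%, Lys-CTT at 85.7% and Glu-TTC at 80.8%. Whether both classes name the reads of these rows alike was not tested.

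The lists of tRNA marks fell on both sides of this order. Of the substrates of the cytosine methyltransferase DNMT2, Asp-GTC had a 5′ share of 7.36% (from 1.91% to 18.4%), whereas Gly-GCC and Val-AAC are rows whose ratio is no share. Their amino acids had the high shares just given. Of the tRNAs that carry queuosine, His-GTG (67.9%) and Tyr-GTA (55.3%) were intermediate, Asp-GTC was low, and Asn-GTT, at 0.253%, had no 5′ read in 20 of 38 libraries.

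Whether diet moved the 5′ pool as a whole was asked first. The summed 5′ reads ranged from 22705 to 140726 with a median of 81532 RPM in the CTCT mice and from 39471 to 211456 with a median of 137430.0 RPM in the CTPR mice. They ranged from 40688 to 204963 with a median of 101871 RPM in the PRCT mice and from 51334 to 160431 with a median of 91985 RPM in the PRPR mice. All 4 groups overlapped, and the CTPR mice lay highest on average. On the log2 scale CTPR was 0.73 above CTCT, a 1.66-fold difference, and 8 of 9 CTPR mice exceeded the median of CTCT (two-sided exact permutation test, P = 0.0429, adjusted over 5 tests P = 0.215). Leaving out 1 mouse raised P above 0.05 in 11 of 19 cases, to between 0.0535 and 0.0842 in exact permutation tests, for CTCT mice 07C3, 09H7, 35F2, 29L6, 57P3 and CTPR mice 02A8, 35F1, 53M4, 56I1, 47I2, 49K3. Between littermates the CTPR mouse was higher in 7 of 8 litters by 0.57 (exact sign-flip permutation test, P = 0.0312). Litter 47I, whose labels conflict with the study's list, is among these 7, at 131928 RPM in 47I2 and 113732 RPM in 47I1. With its labels exchanged the difference of that litter turns its sign, so that the sign-flip P = 0.0312 holds only for the labels as followed. The unpaired log2 difference of CTPR against CTCT was 0.68 with the exchange (exact permutation test, P = 0.0602). PRCT differed from CTCT by 0.30 (exact permutation test, P = 0.427), PRPR from CTCT by 0.35 (permutation test, P = 0.258) and PRPR from PRCT by 0.05 (exact permutation test, P = 0.872). The effect of the diet after weaning was 0.68 larger after CT dams than after PR dams, which did not pass the test of the difference (permutation test, P = 0.162).

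Rows of other classes were higher in CTPR as well. Over the 3903 features of all classes with a mean of at least 20 reads, the median log2 difference between CTPR and CTCT was 0.65, above the median of 0.35 over the 36 5′ members tested. Small nucleolar RNA took 27.5 ± 12.4% of genome-matched reads in CTCT (SD, n = 10) and 16 ± 7.72% in CTPR (SD, n = 9). With snoRNA reads left out of the library size the summed 5′ difference was 0.50 (exact permutation test, P = 0.08). The miRNAs of smooth muscle and stroma summed to 62.3 to 3048 RPM in CTCT (median 1457) and 70.7 to 8098 RPM in CTPR (median 2493), and those of epithelium to 38.9 to 1294 RPM (median 525.5) and 34.2 to 2227 RPM (median 1044). The sperm miRNAs had medians of 424 and 967 RPM. The part of these in the 5′ levels was not tested, and in such bulk samples fewer cells of a type and less RNA per cell cannot be told apart.

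**Figure D3:**
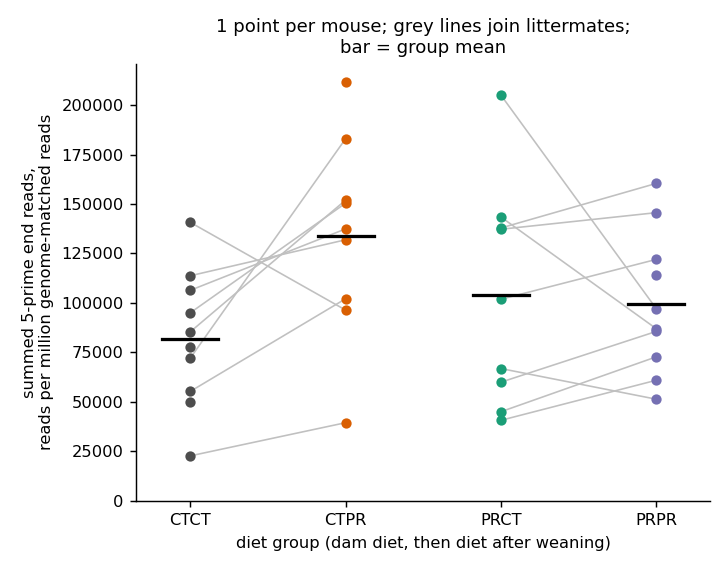
Summed 5′ end reads in RPM, with 1 point per mouse, grey lines between littermates and a bar at each group mean. In 7 of 8 CT litters the CTPR mouse lies above its CTCT littermate, while the PR litters go both ways, 6 of 9 up.

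Among single isoacceptors, 4 of the 36 tested were higher in CTPR than in CTCT at P under 0.05 and 0 were lower (edgeR quasi-likelihood test). That is 11.1% of the members, beside 7.58% of all features tested that were higher and 1.41% that were lower. None passed the Benjamini-Hochberg adjustment over all features, where 0.0512% of the table did. Of the 36 members 34 had a positive estimate with genome-matched reads as library size, whereas with TMM factors, which align the bulk of the features between libraries, their median was -0.30.

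tRNA-His-GTG, which delivers histidine and carries queuosine, had the smallest P. It ran from 288 to 1356 (median 768) RPM in CTCT and from 450.2 to 4890.1 (median 855) RPM in CTPR, a log2 difference of 1.19 (SE 0.39, P = 0.0041, adjusted P = 0.198). Its medians were close, and 4 CTPR mice (35F1, 02A8, 56I1 and 49K3) lay above all CTCT mice while the other 5 lay within their range. With litter as a block the difference was 0.73 (P = 0.0957). Lys-TTT, the rarer lysine tRNA, ran from 25.9 to 346 (median 132) RPM and from 112 to 563 (median 334) RPM, a difference of 0.99 (SE 0.42, P = 0.0225, adjusted P = 0.394), and under the block 0.66 (P = 0.0723). With 47I1 and 47I2 exchanged it was 0.77 (P = 0.0806), whereas His-GTG, Glu-TTC and Gly-CCC were still called. The abundant Lys-CTT differed less, at 5579 ± 2558 RPM (SD, n = 10) in CTCT and 6974 ± 2913 RPM (SD, n = 9) in CTPR. Its log2 difference was 0.32 (SE 0.30, P = 0.296, adjusted P = 0.749).

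The glutamate pair gave one isoacceptor past the nominal threshold and one not. Glu-TTC ran from 616 to 2967 (median 1468) RPM in CTCT and from 1139.8 to 5021 (median 3169) RPM in CTPR, so that 5 of 9 CTPR mice exceeded every CTCT mouse, with a difference of 0.93 (SE 0.34, P = 0.0107, adjusted P = 0.264) and, under the block, 0.77 (P = 0.0156). Glu-CTC, the second most abundant member, ran from 5579 to 33819 (median 13982) and from 8319 to 48947 (median 21090.5) RPM, a difference of 0.44 (SE 0.32, P = 0.18, adjusted P = 0.673). Whether both isoacceptors differ from each other in response was not tested.

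Among the glycine rows, Gly-CCC ran from 9211 to 78963 (median 40557) RPM in CTCT and from 16151 to 136109 (median 77962) RPM in CTPR. The difference was 0.90 (SE 0.38, P = 0.024, adjusted P = 0.404), and 8 of 9 CTPR mice exceeded the median of CTCT, the exception being 09H5, whose CTCT littermate 09H7 was the lowest of its group. Gly-GCC was 5522 ± 2514 RPM and 8442 ± 3397 RPM with a difference of 0.61 (SE 0.33, P = 0.0727, adjusted P = 0.61), Gly-ACC 145 ± 127 and 351 ± 271 RPM with a difference of 1.28 (SE 0.69, P = 0.0724, adjusted P = 0.61) and Gly-TCC 84.4 ± 27.5 and 105 ± 52.2 RPM with a difference of 0.31 (SE 0.31, P = 0.316, adjusted P = 0.763), each as mean ± SD. With litter as a block Gly-CCC (P = 0.00493), Gly-GCC (P = 0.0127) and Gly-ACC (P = 0.0222) fell under the nominal threshold, at log2 differences of 0.71, 0.46 and 0.88, and none passed adjustment (adjusted P = 0.974). Summed over the 4 glycine rows, which removes the question of naming between these rows, the difference was 0.87 (SE 0.37, P = 0.0255, adjusted P = 0.423).

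The other abundant rows had smaller estimates than the median of the table. Val-AAC differed by 0.35 (SE 0.36, P = 0.336, adjusted P = 0.766), Val-CAC by 0.17 (SE 0.41, P = 0.678), SeC-TCA by 0.30 (SE 0.28, P = 0.291), Gln-CTG by 0.32 (SE 0.46, P = 0.49) and Asp-GTC by 0.18 (SE 0.28, P = 0.52). Arg-CCG and Ser-GCT were the 2 members with a negative estimate, of -0.27 and -0.08. In the list of 5 fragments reported by earlier work on protein restriction (Gly-GCC, Gly-CCC, Gly-TCC, Lys-CTT and His-GTG), 2 of 5 reached P under 0.05, Gly-CCC and His-GTG, and 0 of 5 passed adjustment. Over all features 7.58% were higher, 1.41% lower and 0.0512% passed adjustment. The DNMT2 list counted 0 of 3 and the queuosine list 1 of 3 tested, His-GTG, with Asn-GTT left out by the filter and Tyr-GTA at 0.52 (SE 0.49, P = 0.294). Gly-GCC, Gly-CCC and Val-AAC are among the rows that the 5′ and tRNA classes name differently. The counts of the earlier fragments and of the DNMT2 list therefore hold for row names and not for the tRNAs themselves. Under TMM factors the median of the table was 0.09, 0 members passed P = 0.05, and the 4 rows above had estimates of 0.32 (His-GTG), 0.32 (Lys-TTT), 0.37 (Glu-TTC) and 0.31 (Gly-CCC), still positive. Leaving out 1 library took Gly-CCC (without 56I1) and Lys-TTT (without 35F1) past P = 0.05, to P = 0.0584 and P = 0.0574.

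**Figure D4:**
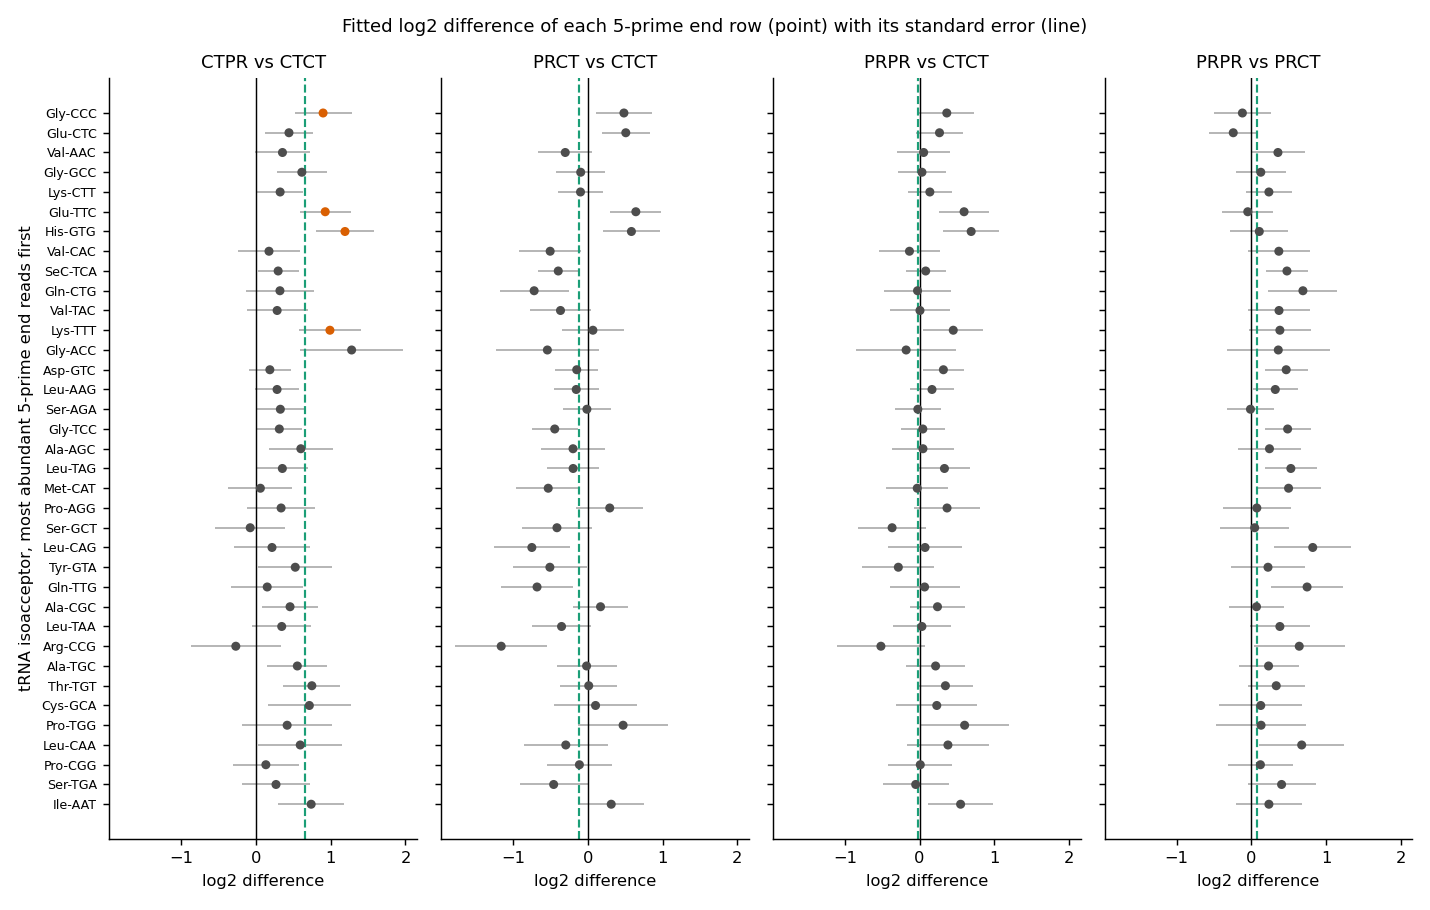
Fitted log2 difference (point) and standard error (line) of the 36 members tested, in 4 comparisons, with P under 0.05 in orange, the solid line at 0 and the green dashed line at the median of all features tested. In CTPR against CTCT the median of the table lies at 0.65 and most 5′ rows lie between it and 0 under this scaling to genome-matched reads.

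In the 3 other comparisons 0 of the 36 members reached P under 0.05. For PRCT against CTCT 2.9% of all features were higher and 3.07% lower at that threshold, for PRPR against CTCT 3.13% and 2.74%, and for PRPR against PRCT 3.33% and 2.77%. No member passed adjustment either, beside 0%, 0.0512% and 0.0256% of all features. In the PRCT mice, restricted before weaning only, estimates went both ways. Gly-CCC ran from 16215 to 124070.0 (median 59946) RPM and differed from CTCT by 0.48 (SE 0.38, P = 0.211). Positive estimates were also those of Glu-CTC by 0.51 (SE 0.32, P = 0.123), Glu-TTC by 0.64 (SE 0.34, P = 0.069) and His-GTG by 0.58 (SE 0.39, P = 0.139), whereas Arg-CCG was at -1.16 (SE 0.62, P = 0.068), Gln-CTG at -0.72 (SE 0.46, P = 0.129) and Val-CAC at -0.50 (SE 0.42, P = 0.233). In all, 25 of 36 estimates were negative with genome-matched reads as library size, with a median of -0.18 beside -0.11 in the table. The comparison shares its CTCT mice with the one above.

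In mice restricted throughout life the leading rows differed from CTCT by about their standard errors. In PRPR Gly-CCC ran from 22796 to 95087 (median 52169) RPM, 0.36 from CTCT (SE 0.37), and Glu-CTC ran from 10195 to 25411 (median 19837) RPM, 0.27 from CTCT (SE 0.31). The largest estimate was that of His-GTG, 0.69 (SE 0.38, P = 0.0753, adjusted P = 1), at 1241 ± 537 RPM against 768 ± 331 RPM. Against PRCT, with PR dams on both sides, 32 of 36 estimates were positive with a median of 0.33 beside 0.08 in the table, and the smallest P was that of SeC-TCA, 0.48 (SE 0.28, P = 0.0938). An effect of the diet after weaning that depended on the dam was tested by the interaction, in which 0 of 36 members reached P under 0.05 beside 4.18% of features higher and 2% lower, and 0 passed adjustment beside 0.948% of features. Glu-TTC (0.97, P = 0.0524), His-GTG (1.08, P = 0.0548) and Gly-CCC (1.02, P = 0.0665) came nearest, and Gly-CCC had P = 0.0317 with litter as a block (adjusted P = 1).

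The share of 5′ ends was compared next. Over all isoacceptors together the share was 85.7 ± 2.7% in CTCT (SD, n = 10) and 83.9 ± 2.94% in CTPR (SD, n = 9), with 85.5 ± 1.47% in PRCT and 85.5 ± 2.02% in PRPR. None of the 5 tests reached P under 0.05, the smallest being CTPR against CTCT with -1.8 percentage points (two-sided exact permutation test, P = 0.185, adjusted P = 0.668). For single isoacceptors the test could be run on the 39 whose 5′ reads never exceeded those of the tRNA class and whose rows in that class averaged at least 20 reads, as the log2 ratio of 5′ reads to the other reads of the tRNA. This rule keeps rows such as Gly-GCC, Val-TAC, Leu-TAA and Pro-CGG, of amino acids whose reads both classes do not all name alike. Not every ratio below is therefore a share.

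In CTPR 8 of 39 ratios differed from CTCT at P under 0.05 (limma), 20.5% of those tested, in PRCT 5 (12.8%), in PRPR 0 against either CTCT or PRCT, in the interaction 4 (10.3%), and 0 passed adjustment over the 39 in any comparison. Glu-TTC was the one higher in CTPR. Its share ran from 61.4% to 82.4% (median 75.5%) in CTCT and from 76.3% to 87% (median 82.5%) in CTPR, a log2 difference of 0.50 (SE 0.23, P = 0.0371, adjusted P = 0.22). Met-CAT was lower, from 3.46% to 17% (median 7.17%) in CTCT and from 0.818% to 11.9% (median 4.14%) in CTPR, with a difference of -0.98 (SE 0.44, P = 0.0316, adjusted P = 0.22), and Val-TAC was at -0.64 (SE 0.30, P = 0.0404, adjusted P = 0.22). Arg-CCT was also among them, but its 18 5′ reads fell in 6 libraries, so that its value rests on few reads and on the pseudocount of 0.5. SeC-TCA had its lowest group median in PRCT, where its share ran from 42.2% to 57.4% (median 47.9%), although the lowest single mouse was 49K3 of CTPR at 32.3%. In CTCT it ran from 47% to 66.6% (median 60.4%), a difference of -0.58 (SE 0.21, P = 0.00789, adjusted P = 0.154). The Gly-GCC ratio, no share in itself, was 12.9 ± 4.72% in CTCT and 8.33 ± 1.8% in PRCT, with a difference of -0.67 (SE 0.21, P = 0.00325, adjusted P = 0.127), and that of CTPR against CTCT was -0.47 (SE 0.21, P = 0.033, adjusted P = 0.22). With 47I1 and 47I2 exchanged the CTPR calls of Glu-TTC (P = 0.0689), Val-TAC (P = 0.0575), Leu-TAA (P = 0.0656) and Pro-CGG (P = 0.0958) were lost. With litter as a block those of Val-TAC (P = 0.0504), Gly-GCC (P = 0.0872), Gln-CTG (P = 0.0811) and Arg-CCT (P = 0.096) were lost, and Glu-TTC (P = 0.00934) and Met-CAT (P = 0.0139) were kept. Glu-TTC lost its call in 7 of 38 refits with 1 library left out, those without 57P3, 02A6, 35F1, 45L1, 53M4, 56I1 or 47I2 (P up to 0.0932). Met-CAT lost its call in 5 of 38 refits with 1 library left out, those without 57P3, 45L1, 53M4, 56I1 or 57P1 (P up to 0.0996). Val-TAC lost its call in 10 of 38 refits with 1 library left out, those without 07C3, 57P3, 35F2, 29L6, 47I1, 49K1, 09H5, 35F1, 45L1 or 57P1 (P up to 0.0957). Gly-GCC lost its call in 4 of 38 refits with 1 library left out, those without 07C3, 57P3, 35F1 or 49K3 (P up to 0.0902). The PRCT calls of SeC-TCA and Gly-GCC were kept in all 38 such refits. Under other tests 2 values passed adjustment, PRCT Gly-GCC in a 2-column edgeR fit (adjusted P = 0.0108) and CTPR Leu-TAA with litter as a block (-0.72, adjusted P = 0.0303). In the main limma fit Leu-TAA was at -0.51 (P = 0.0454, adjusted P = 0.22), and it lost its call in 11 of 38 refits with 1 library left out (P up to 0.103). The CTPR calls of Gln-CTG, Pro-CGG and Arg-CCT were lost in 12, 10 and 9 of 38 such refits.

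Summed per amino acid, a level chosen after the naming of rows had been seen, 2 of 21 shares passed adjustment in CTPR against CTCT, 9.52% of those tested, and 0 in the other comparisons. At an unadjusted P under 0.05, 19% of them were called in CTPR, 19% in PRCT, 4.76% in PRPR against CTCT, 0% in PRPR against PRCT and 19% in the interaction. Arginine ran from 3.7% to 26.9% (median 8.3%) in CTCT and from 1.24% to 11.6% (median 3.6%) in CTPR, a log2 difference of -1.33 (SE 0.44, P = 0.00458, adjusted P = 0.0481), in which 57P3 (CTCT) and 47I2 (CTPR) were each the highest of their group. Leucine ran from 44.1% to 70.3% (median 58.5%) and from 39.3% to 59.8% (median 48.6%), a difference of -0.60 (SE 0.20, P = 0.00407, adjusted P = 0.0481). The groups overlapped in both. The arginine share rests on few reads, 4011 5′ reads in all mice, nearly all of them from Arg-CCG (3820). Its denominator, 76566 reads of the tRNA class, counts every arginine isoacceptor, also Arg-CCT with its almost empty 5′ row. The ratio of Arg-CCG alone was not called in CTPR. The part of the mix of isoacceptors in the arginine and leucine differences was not tested. The calls of these 2 amino acids were not stable. Neither passed adjustment with litter as a block (adjusted P = 0.0978 for both) or without the 3 libraries whose totals do not add up (adjusted P = 0.106 for both). With 1 library left out at a time, both passed in 10 of 38 refits and neither in 28, with adjusted P between 0.0141 and 0.148. They passed only in the refits without 02A6, 09H7, 53M1, 47I2, 23F4, 51O1, 59L1, 59L3, 40H3 or 46I3. In PRCT the arginine share ran from 0.547% to 9.06% (median 4.19%), -1.25 (SE 0.44, P = 0.00761, adjusted P = 0.0799) from CTCT, and in PRPR from 2.14% to 9.16% (median 4.47%). The interaction gave -1.70 (SE 0.63, P = 0.00995, adjusted P = 0.12) for arginine and -0.74 (SE 0.28, P = 0.0114, adjusted P = 0.12) for leucine, so that no share was shown to respond differently after CT and PR dams.

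**Figure D5:**
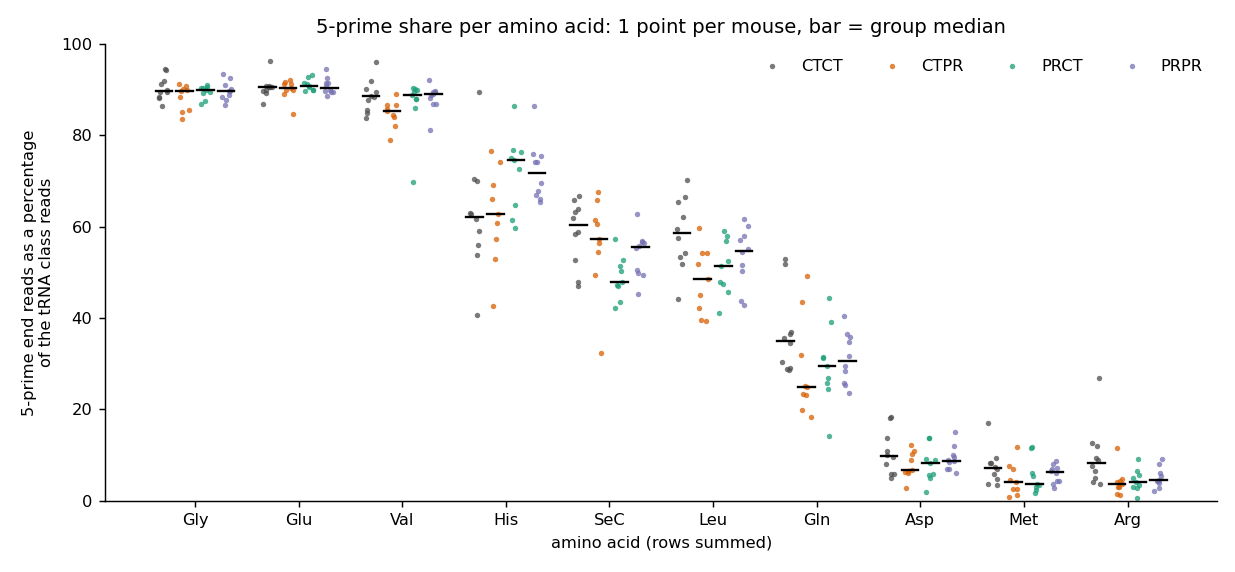
5′ end reads as a percentage of the reads of the tRNA class, summed per amino acid, with 1 point per mouse, a colour per diet group and a bar at the group median. Glycine and glutamate lie between 83.7% and 96.2% in all mice, and the arginine median of CTCT, 8.3%, is the highest of the 4 groups.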

How the data were processed

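Small RNA of sperm was sequenced by the authors from 1 library per mouse (ligation kit, size selection of the library, 75 bp single reads). The authors trimmed the reads, annotated them against the mouse genome (mm10 per the labels' processing notes) and small RNA databases with SPORTS, and deposited 1 table of read counts per mouse with a row per RNA name in each class. The deposited counts are whole, not normalised and hold no molecular identifiers, so that reads are not independent molecules. In 1 table the rows of the CCA end class were repeated and the first copy was kept.

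Groups came from the sample labels and litters from the mouse identifiers. Reads were divided by genome-matched reads of the library. Counts were fitted with edgeR 4.0.16 (quasi-likelihood test, robust, genome-matched reads as library size) over all rows with a mean of at least 20 reads, and P values were adjusted over all 3903 of them by Benjamini-Hochberg. Shares were tested with limma 3.58.1 on log2 ratios with a pseudocount of 0.5, and single values per mouse by two-sided permutation. The share test could not be run where 5′ reads exceeded those of the tRNA class in a library (7 isoacceptors), and sums per amino acid were added after this was seen. DESeq2 1.42.0 was an alternative. R 4.3.3 and Python 3.11.15 were used. In simulated data at the size of CTPR against CTCT with 39 isoacceptors, limma recovered 76.7% of changes of 2 in the log2 ratio of 5′ to other reads. In simulated counts for CTPR against CTCT over 3903 rows, edgeR recovered 22.5% of 200 rows changed by 2 on the log2 scale, 40.8% of its 76 adjusted calls were false and 8.94% of unchanged rows had P under 0.05, whereas among the 453 rows with at least 10 reads in every library 72.5% were recovered and 2.42% of unchanged ones had P under 0.05. Changes of 1 were not recovered after adjustment (0%). Alternatives covered scaling, filters, pseudocounts, litter as a block, the exchange of 47I1 and 47I2 and each library left out.

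Littermates deviated from their group means together in summed 5′ reads (r = 0.671 over 17 litters) and not in the pooled share (r = -0.249). Named isoacceptors were the 10 most abundant, up to 5 per direction with the smallest unadjusted P under 0.05 in each comparison and test, the 5 highest and lowest ratios, and 3 fixed lists. Others named for a sequence or an empty row were chosen after their values were seen. Members, lists and tests were chosen with earlier results of these data known. The count of 0 limit and all counting errors cover counting only.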

Additional observations from a re-analysis of the deposited data

Results flagged for a closer look

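In 10 of 88 groups of one isoacceptor and one diet, a single mouse lay apart from the others by more than Dixon's limit. Chance flags about 1 in 20 such groups where values are normal and groups independent. The levels were RPM without a log, all flags were on the high side, and the same mice recur, so that this rate is only a rough guide. In CTCT, 57P3 was high for Gln-CTG (1343 RPM, next 535) and Arg-CCG (69.5 RPM, next 29.3), 45L3 for Val-CAC (2859 RPM, next 1544) and 02A6 for Ser-AGA (257 RPM, next 132). In CTPR, 02A8, of the same litter as 02A6, was high for Ser-AGA (199.7 RPM, next 125) and Asp-GTC (455 RPM, next 212). In PRCT, 59L1 was high for Glu-CTC (53292 RPM, next 31507). In PRPR, 46I3 was high for Val-AAC (16193 RPM, next 8979), Ala-AGC (178 RPM, next 104) and Arg-CCG (43.3 RPM, next 21.3).

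The effect of protein restriction after weaning on the log2 ratio of 5′ to other reads differed between CT and PR dams at an unadjusted P under 0.05 for 4 isoacceptors (limma interaction). It was -3.41 for Arg-TCT (P = 0.0475), -1.32 for Met-CAT (P = 0.041), -1.01 for Val-TAC (P = 0.0221) and -0.74 for Gly-GCC (P = 0.018). None passed adjustment (adjusted P = 0.362 for all 4), and Arg-TCT had no 5′ read in 14 libraries. With 1 library left out the call of Arg-TCT was lost in 21 of 38 refits and that of Met-CAT in 17, while those of Val-TAC and Gly-GCC were kept in all. Arg-TCT was also lost with a pseudocount of 5 (limma, P = 0.0889) and Met-CAT without the libraries that do not add up (limma, P = 0.0589). Gly-GCC and Val-TAC are rows of amino acids whose reads both classes do not name alike, so that their ratios need not be shares.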

How the results depend on the processing

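The summed log2 difference of CTPR against CTCT kept its sign under every alternative run but passed P = 0.05 no longer without snoRNA reads in the library size (0.50), with 47I1 and 47I2 exchanged (0.68, P = 0.0602 by exact permutation) or without the libraries whose totals do not add up (0.73, P = 0.057 by exact permutation), and ranged from 0.54 to 0.93 with 1 library left out. PRPR against PRCT was -4513 RPM on the linear scale and ranged from -0.0941 to 0.197 with 1 library left out. The summed PRCT, PRPR against CTCT and interaction differences kept their sign.

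The pooled share turned its sign where rows whose names differ between classes were reweighted, and the cause was not tested. With the mean over isoacceptors it was 13.9 (CTPR), 12.4 (PRCT), 6.8 (PRPR against CTCT) and 19.6 (interaction) percentage points. Without Gly-GCC, whose tRNA class reads then drop out, it was 28.2, 17, 2.8 and 42.4 (permutation P = 0.0257 for the interaction). With the class total as denominator PRCT was 2.98 and the interaction 1.44, with the mean over amino acids PRPR against PRCT was 0.27, and without glycine PRCT was 0.0261. With 1 library left out PRCT ranged from -0.575 to 0.401, PRPR against CTCT from -0.691 to 0.35 and PRPR against PRCT from -0.485 to 0.253.

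Counts of members at P under 0.05 (main 4 in CTPR, 0 elsewhere) depended on the scaling in direction too. None of the main 4, all higher in CTPR, was called there with TMM factors, the 5′ sum, DESeq2's own size factors or no filter. TMM factors gave 0 in CTPR, 2 in PRCT and 3 in the interaction, all lower. Of all 3903 rows 100, 120 and 99 were lower in these comparisons, and 158, 133 and 135 higher. The 5′ sum as library size gave 1 in CTPR (Lys-CTT, -0.44), 9 in PRCT, 1 in PRPR against CTCT and 4 in the interaction, all lower. Of all 3903 rows 101, 198, 147 and 101 were lower in these comparisons, and 156, 93, 111 and 128 higher. In PRCT the median of the whole table under this scaling was -0.43, beside -0.51 over the members. No filter gave 1 in CTPR (Arg-ACG, higher), 2 in PRCT and in the interaction (Arg-ACG higher, Arg-CCT lower) and 1 in PRPR against PRCT (Arg-CCT, higher). Of all 638403 rows 25140 were higher in CTPR and 15711 in PRPR against PRCT. In PRCT 14326 were higher and 16166 lower, and in the interaction 17431 and 8598. DESeq2 with its own size factors gave 0 in CTPR, 3 in PRCT (lower), 1 in either PRPR comparison (higher) and 3 in the interaction (lower). Of all 3903 rows 115 were lower in PRCT and 90 in the interaction, and 73 were higher in either PRPR comparison. PRCT had 1, Arg-CCG lower, with at least 10 reads in every library, 5′ rows only, DESeq2 on genome-matched totals, the newer edgeR method and 47I exchanged, and 1, Glu-TTC higher, with snoRNA left out. Of all rows 6 of 453 were lower with at least 10 reads in every library. Of 3903 rows 88 (DESeq2), 196 (newer edgeR) and 131 (47I exchanged) were lower, and 114 were higher with snoRNA left out. The interaction calls under the next settings were all higher, 1 with 5′ rows only, snoRNA left out, 47I exchanged and litter as a block, 2 with DESeq2 on genome-matched totals, without litter 47I and without the libraries that do not add up, and 3 with the newer edgeR method. In the order named after 5′ rows only, 153, 175, 70, 119, 195, 172 and 281 of all 3903 rows were higher. With 47I exchanged CTPR had 3, without Lys-TTT, beside 313 of all 3903 rows higher. With 1 library left out the counts were 3 to 7 (CTPR), 0 to 2 (PRCT), 0 to 2 (PRPR against CTCT), 0 to 1 (PRPR against PRCT) and 0 to 3 (interaction). No member passed adjustment under any alternative run.

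With litter as a replicate block, a pairing taken from the mouse identifiers, 4 members were called in CTPR, of which 2 (Glu-TTC and Gly-CCC) were shared with the fit without it. All 4 were higher, beside 125 of all 3903 rows higher and 21 lower. For shares the block gave 5 in CTPR (Glu-TTC, Leu-CAG, Leu-TAA, Met-CAT and Pro-CGG) and 7 in the interaction, with 1 adjusted call, and 0 amino acids.

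Share counts (main 8, 5, 0, 0 and 4) were 1 in PRPR against CTCT with a pseudocount of 5 or in the 2-column edgeR fit, which also gave 1 adjusted call in PRCT, and 3 there with the ratio for every isoacceptor. Without the libraries that do not add up they were 5 in CTPR and 1 in either PRPR comparison, and amino acid calls 0. With 47I exchanged 2 amino acids, arginine and selenocysteine, passed in PRCT. With 1 library left out the share counts were 1 to 10 in CTPR, 2 to 8 in PRCT, 0 to 1 and 0 to 1 in the PRPR comparisons and 2 to 7 in the interaction, and amino acid calls 0 to 3 in CTPR and 0 to 2 in PRCT. Depth limits the 13 members below a mean of 20 reads, which were not tested.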

Other observations

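The make-up of the 5′ pool varied between single mice. As a share of all 5′ end reads of a mouse, Gly-CCC ranged from 26.7% (07C3) to 65.5% (40H1), Glu-CTC from 8.15% (57P1) to 49% (07C3), Val-AAC from 0.905% (59L1) to 15.1% (57P3), Lys-CTT from 2.97% (02A6) to 11.7% (57P3), SeC-TCA from 0.0926% (49K3) to 3.04% (09H7) and Gln-CTG from 0.0754% (59L1) to 2.43% (57P3). The mouse with the most Glu-CTC, 07C3, had the least Gly-CCC, and the shares of a pool are tied to each other in this way. The CTCT mouse 57P3 had the highest shares of Val-AAC, Lys-CTT, Val-CAC and Gln-CTG. Gly-GCC was at 6.7 ± 0.846% of 5′ reads in CTCT (SD, n = 10), 6.24 ± 1.17% in CTPR (SD, n = 9), 4.96 ± 0.645% in PRCT (SD, n = 9) and 5.68 ± 1.21% in PRPR (SD, n = 10). The first 8 isoacceptors by level were the same 8 in 30 of 38 mice.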
